A study of Rattus norvegicus with 43 samples.

Results

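The comparison described here asked whether the difference in gene expression between 2am and 2pm in the kidney cortex depended on dietary salt in rats labelled Per1KO. It used the 21 Per1KO libraries among the 43 libraries of the series, chosen by their titles, and 4 of its 8 groups. All animals were male Dahl salt-sensitive (SS) rats, and those used here carried the genotype SSper1-/-. They were fed for 3 weeks either 0.4% NaCl, called normal salt here, or 4% NaCl, called high salt. Cortex was collected at 2pm, in the inactive phase of this nocturnal animal, or at 2am, in the active phase. There were 6 libraries of normal salt at 2pm and 5 each of normal salt at 2am, high salt at 2pm and high salt at 2am. The other 22 libraries came from SS rats with the same diets and times (6, 6, 5 and 5 libraries), and were used only where the genotypes are compared. The labels give no age, and do not say which part of Per1 was altered or whether each library came from a separate animal, so p-values measure only the spread between these libraries.

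The circadian clock is a feedback loop in which BMAL1 (encoded by Arntl) and CLOCK activate the Per and Cry genes through E-box sequences, and PER and CRY proteins then repress their own transcription. BMAL1 and CLOCK also activate Nr1d1 and Nr1d2, whose products REV-ERBα and REV-ERBβ repress Arntl through ROR response elements. In the kidney, clock proteins are known to influence sodium transport, and Per1 has been linked to the epithelial sodium channel ENaC. The proximal tubule, the main cell type of the cortex by mass, reabsorbs most filtered solutes and burns fatty acids to power this.

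The cortex label was checked with marker genes: the summed level of 8 proximal tubule markers was between 2885 and 10287 FPKM (fragments scaled to gene length and library depth) in the 21 libraries, while the summed levels of adrenal markers (at most 1.58 FPKM) and of inner medulla and urothelium markers (at most 3.26 FPKM) were near 0. Pvalb, a marker of the distal convoluted tubule, was listed at 0 in all 21. Per1 messenger RNA was present in every Per1KO library, and its level does not check the label, since the altered part of the gene is not stated. Its level lay between 7.94 and 21.9 FPKM on normal salt at 2pm, 9.50 and 14.3 at 2am, 8.64 and 20.9 on high salt at 2pm, and 9.13 and 12.2 at 2am, against 4.98 to 26.9 over the SS libraries. Assigned depth was 26718381 to 41637801 fragments per library on normal salt and 15338237 to 27641227 on high salt. Normal salt 2pm replicate 1, where perirenal fat markers summed to 320.8 FPKM against 17.3 to 46.2 in the other libraries, and high salt 2am replicate 1 stood apart from the rest, and where leaving out both ended the call of a gene whose statistics are printed, that value is given. The library numbers in the labels differ with the time of collection, so time and whatever the numbers stand for cannot be told apart. Within high salt at 2pm, replicates 1 to 3 carry low numbers (AZ004 to AZ006). Replicates 4 and 5 carry higher ones (AZ44 and AZ45), which follow those of normal salt at 2pm (AZ038 to AZ043). At 2am the numbers also adjoin, AZ279 to AZ283 on normal salt and AZ284 to AZ289 on high salt. With replicates 1 to 3 in use, the interaction cannot be told apart from whatever their numbers stand for. The normal salt and high salt libraries came in separate tables, so levels are set side by side across diets and only the time difference within each diet enters a test.

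The 2am minus 2pm difference depended on diet for a large set of genes. Of 13621 genes with an FPKM of at least 1 in 5 or more of the libraries, 1560 (11.5%) passed an adjusted p of 0.05 for the interaction, the difference on high salt minus that on normal salt on the log2(FPKM + 1) scale (limma, Benjamini-Hochberg adjusted). A positive interaction means that the 2am level relative to 2pm was higher on high salt. It was positive in 815 genes (5.98%) and negative in 745 (5.47%), and the median over all genes was 0.01. On normal salt alone 634 genes (4.65%) differed between the times, 324 higher (2.38%) and 310 lower (2.28%) at 2am. On high salt alone 1654 genes (12.1%) differed, 928 higher (6.81%) and 726 lower (5.33%).

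Over all 13621 genes the estimated time difference had opposite signs on the diets in 7552 (55.4%), with a Pearson r of -0.064 and a Spearman rho of -0.132 across genes, which are not independent. The test picks genes whose time differences depart from each other, so the signs and extremes of passing genes follow in part from that choice and are given as a description. Among the 815 positive genes, 754 were lower at 2am on normal salt and higher at 2am on high salt by estimate, and among the 745 negative genes 710 showed the reverse. Most of these estimates passed on 1 diet at most: of the positive genes 137 passed on normal salt alone, 423 on high salt alone, 23 on both with opposite signs, 3 on both with the same sign and 229 on neither, and of the negative genes 125, 325, 22, 1 and 272. The high salt 2pm group held the lowest mean of the 4 groups in 673 positive genes and the highest mean in 577 negative genes. The normal salt 2pm group held the highest mean in 620 of the 815 positive genes and the lowest mean in 518 of the 745 negative genes. The median absolute difference between the diets' group means was 0.45 (log2) at 2pm and 0.17 at 2am in passing genes, against 0.22 and 0.17 over all genes tested; these levels come from separate tables and were not tested.

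**Figure D1:**
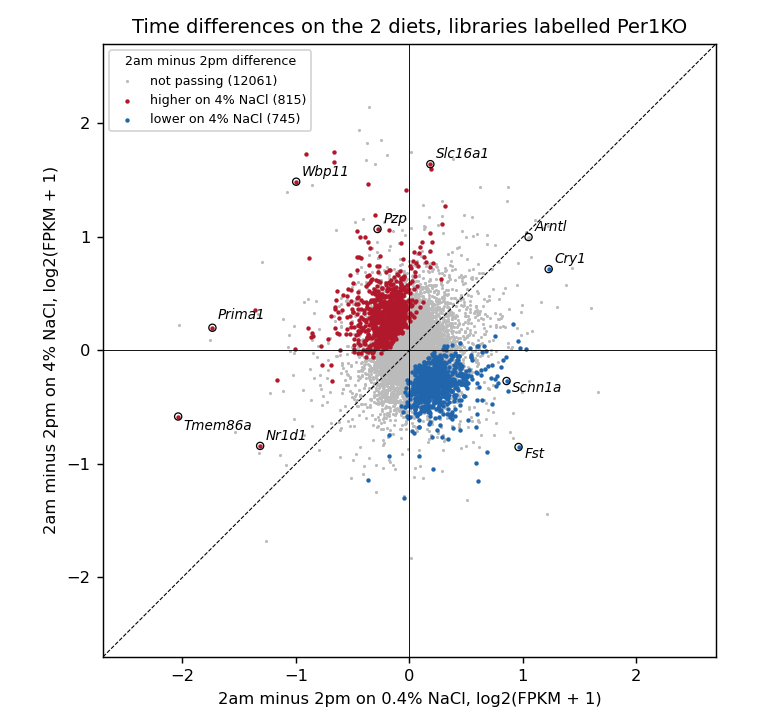
Each point is 1 gene, with its 2am minus 2pm difference on 0.4% NaCl (horizontal) and on 4% NaCl (vertical), both in log2(FPKM + 1), in the libraries labelled Per1KO. The 815 positive genes lie mostly above and left of the origin and the 745 negative genes below and right of it. The 12061 genes that did not pass are grey, and 1 gene lies outside the axes.

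The count depended on which high salt 2pm libraries were used. With replicates 4 and 5 as the only high salt 2pm libraries 79 genes passed, and with replicates 1 to 3 alone 2284 passed. Of the 1560 genes, 72 (4.62%) passed with replicates 4 and 5 alone and 1432 (91.8%) with replicates 1 to 3 alone. All 1560 kept the sign of their estimate with replicates 4 and 5 alone, though the other 3 groups are the same libraries in both fits. Leaving out normal salt 2am replicate 2 gave 883 genes and leaving out normal salt 2am replicate 3 gave 997. With both libraries that stand apart left out 1014 passed, 921 of them among the 1560. The normal salt count was 247 to 400 without normal salt 2pm replicate 1, 3 or 6 or 2am replicate 1, 2, 3 or 4, and 1049 without 2pm replicate 4. The high salt count was 1016 to 1073 without high salt 2pm replicate 2 or 3 or 2am replicate 1 or 5.

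A small group of genes changed with time on both diets and in opposite directions. The time difference passed on both diets in 107 of the 13621 genes tested, with the same sign in 62 and opposite signs in 45. All 45 passed the interaction, which follows largely from their choice, since the interaction subtracts 1 of these differences from the other. Over all genes, the high salt count fell from 1654 to 45 with only high salt 2pm replicates 4 and 5. The normal salt count fell from 634 to 212 with the replicate block. The passes with replicates 4 and 5 given below are of the interaction, not of the high salt difference. Sec14l1 (ENSRNOG00000002722, chromosome 10, positions 106065712 to 106112857 in the tables, whose genome build the labels do not name), a SEC14-like lipid-binding protein gene, had the smallest interaction p. On normal salt it lay between 19.0 and 20.7 FPKM at 2pm (median 19.7) and read 26, 26, 26.4, 25.9 and 25.8 at 2am. On high salt it read 28.7, 25.9, 27.2, 26.7 and 26.2 FPKM at 2pm and 24.6, 21.9, 24.4, 21.5 and 23.6 at 2am. The time groups did not overlap on either diet, with 2am the higher time on normal salt and the lower time on high salt. The interaction was -0.58 ± 0.06 (SE; adjusted p = 5.11e-05), and it passed with replicates 4 and 5 as the only high salt 2pm libraries (-0.56, adjusted p = 0.00337).

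Other genes shared the pattern, and the plot of 8 genes by library holds the values of Folr1, Tanc1 and Stk39. Folr1, the folate receptor that retrieves folate in the proximal tubule, moved the other way. Its level was 479.8 to 542.9 FPKM at 2pm on normal salt (median 510.2), and 359, 364, 370.4, 405 and 401 at 2am. On high salt it read 254, 245, 289, 293 and 309 FPKM at 2pm, and 338, 322, 342, 310.3 and 387 at 2am. The time groups again did not overlap on either diet, and 2am was lower on normal salt and higher on high salt, with an interaction of 0.72 ± 0.10 (adjusted p = 0.002). Tanc1, a scaffold protein gene, rose at 2am on normal salt by 0.37 and fell on high salt by 0.19, an interaction of -0.56 ± 0.07 (adjusted p = 0.00176), without overlap on either diet. Stk39 was 6.96 to 9 FPKM at 2pm on normal salt (median 7.81) and 10.9, 10.03, 9.35, 9.47 and 9.64 at 2am, without overlap, while on high salt 2pm (12, 12.3, 9.66, 9.94 and 12) and 2am (9.87, 8.03, 9.09, 8.02 and 8.61) overlapped. It encodes the SPAK kinase, which activates the sodium chloride cotransporter of the distal tubule, and had differences of 0.30 and -0.32 and an interaction of -0.62 ± 0.10 (adjusted p = 0.00443). Hexokinase 1 (Hk1), the first enzyme of glycolysis, also rose on normal salt and fell on high salt (interaction -0.65 ± 0.11, adjusted p = 0.00453). Snapc5, which encodes a subunit of the small nuclear RNA activating complex, had an interaction of 0.56 ± 0.08 (adjusted p = 0.00246), with differences of -0.29 and 0.27 and no overlap on either diet. Folr1, Tanc1 and Stk39 also passed with only high salt 2pm replicates 4 and 5 (adjusted p = 0.036, 0.035 and 0.0465).

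**Figure D2:**
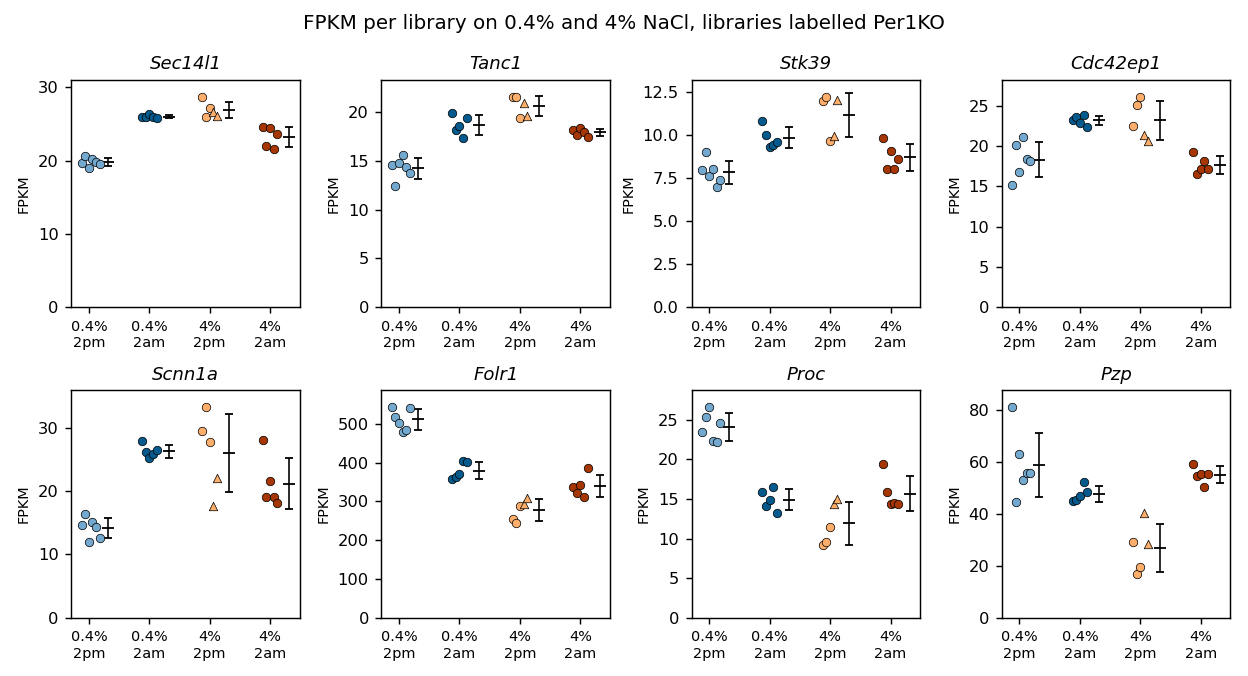
FPKM of each library (points) with group means and SD for 8 genes, in the 4 groups of libraries labelled Per1KO, with 2pm and 2am on each diet; triangles are high salt 2pm replicates 4 and 5. Sec14l1 is lower at 2pm than at 2am on normal salt (19.0 to 20.7 against 25.8 to 26.4 FPKM) and higher at 2pm than at 2am on high salt (25.9 to 28.7 against 21.5 to 24.6 FPKM).

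In the rats labelled SS, the same interaction passed in 10 of 14102 genes (0.0709%; 3 or 0.0213% positive and 7 or 0.0496% negative), with 1919 at an unadjusted p under 0.05. The 43-library model shares 1 spread over all libraries, and in it the Per1KO interaction passed in 415 genes. The SS normal salt 2pm libraries have names starting with OK, and all other libraries names starting with AZ. In the SS interaction and the difference between genotypes, that group cannot be told apart from whatever these names stand for. The interaction differed between Per1KO and SS in 381 genes (2.7%; 188 or 1.33% higher and 193 or 1.37% lower in Per1KO), with 2900 at an unadjusted p under 0.05. Among the genes examined one by one, 8 differed: Proc, Pzp, Slc27a2, Etfdh, Cdc42ep1, Pdgfrb, Loxl1 and Eng. Etfdh, an electron carrier of fatty acid oxidation, differed by 0.80 (adjusted p = 0.0372) and failed in 15 of 43 fits without 1 library. The others were Proc, which encodes the anticoagulant protein C (Per1KO interaction 1.04 ± 0.16, Per1KO minus SS 1.03, adjusted p = 0.025), and Pzp, a protease inhibitor of the alpha-2-macroglobulin family (1.35 ± 0.23, difference 1.44, adjusted p = 0.025). Pzp overlapped between times on normal salt, at 44.5 to 81 FPKM at 2pm and 44.8 to 52.4 at 2am. On high salt it read 29, 16.9, 19.4, 40.3 and 28.6 FPKM at 2pm and 59.4, 54.6, 55.3, 50.3 and 55.5 at 2am, without overlap. Slc27a2, which activates and takes up long-chain fatty acids, had an interaction of 0.67 ± 0.13 and a difference from SS of 0.997 (adjusted p = 0.025). Cdc42ep1, a CDC42 effector gene, had an interaction of -0.71 ± 0.10 and differed by -0.99 (adjusted p = 0.025). Pdgfrb, the receptor of pericytes and fibroblasts, had an interaction of -0.94 ± 0.19 and differed by -1.24 (adjusted p = 0.025). Loxl1, which crosslinks elastin, had an interaction of -0.99 ± 0.23 and differed by -1.45 (adjusted p = 0.025), and Eng, the endothelial TGF-beta coreceptor, differed by -1.23 (adjusted p = 0.0252). For the genes other than Etfdh the difference passed without each of the 43 libraries in turn, but not with only the high salt 2pm libraries numbered 44 to 61 (adjusted p = 0.0658 to 0.188), while the count of differing genes was 1970 with only those numbered 004 to 008 and 63 with only those numbered 44 to 61. The count lay between 131 (without Per1KO high salt 2pm replicate 3) and 681 (without Per1KO high salt 2pm replicate 4) without 1 library.

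The core clock genes with the widest daily differences, Nr1d1, Cry1 and Arntl, passed for time in the same direction on both diets, and 3 of 15 tested core clock genes passed the interaction (1 positive, 2 negative, beside 11.5% of all genes). Nr1d1 was lower at 2am on both diets. On normal salt its level was 14.6 to 21.2 FPKM at 2pm (median 17.1) and 6.79, 6.15, 6.28, 6.62 and 5.88 at 2am, and on high salt 15.2, 12.3, 11, 10.7 and 14.4 at 2pm and 5.90, 6.91, 7.86, 6.05 and 6.38 at 2am. The groups did not overlap on either diet, and the difference was -1.32 ± 0.09 on normal salt and -0.84 ± 0.10 on high salt (interaction 0.47 ± 0.13, adjusted p = 0.0299). Cry1 rose at 2am, by 1.23 ± 0.10 on normal salt and 0.72 ± 0.10 on high salt, an interaction of -0.51 ± 0.14 (adjusted p = 0.0255). Its level was 2.84 to 3.84 FPKM at 2pm (median 3.39) and 7.85, 9.33, 10.1, 9.29 and 9.64 at 2am on normal salt. On high salt it was 3.63, 5.16, 5.22, 5.30 and 3.92 at 2pm and 10.1, 7.53, 8.51, 7.48 and 7.59 at 2am. Csnk1e, a kinase of PER proteins, did not pass on normal salt (0.16) but was lower at 2am on high salt (-0.26), an interaction of -0.42 ± 0.09 (adjusted p = 0.00898). Arntl, by contrast, rose at 2am by 1.05 on normal salt and 0.999 on high salt, an interaction of -0.05 ± 0.14 (adjusted p = 0.836). Nr1d2 (0.29 ± 0.11, adjusted p = 0.0819) and Dbp (0.42 ± 0.19, adjusted p = 0.143) did not pass the interaction. Both passed for time on each diet and were lower at 2am. The normal and high salt differences were -0.77 and -0.48 for Nr1d2, and -1.33 and -0.90 for Dbp. Interactions of the remaining clock genes did not pass either. Per1 gave -0.10 ± 0.29 (adjusted p = 0.841), Per2 -0.32 (adjusted p = 0.267), Per3 -0.24 (adjusted p = 0.281), Clock 0.18 (adjusted p = 0.452), Cry2 -0.03 (adjusted p = 0.874) and Rora 0.42 (adjusted p = 0.107). The passes of Nr1d1 and Cry1 were near the threshold: without 1 library at a time the adjusted p for Nr1d1 was 0.0509 to 0.0577 without high salt 2pm replicate 3, high salt 2am replicate 3, normal salt 2pm replicate 1 or normal salt 2am replicate 2 or 3, and for Cry1 rose to 0.0503 (without normal salt 2am replicate 3), and neither passed with only high salt 2pm replicates 4 and 5 (adjusted p = 0.111 and 0.107), in the model of all 43 libraries (0.216 and 0.289) or with the replicate block (0.0739 and 0.0586). Without the expression filter the adjusted p of Nr1d1 was 0.0522.

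**Figure D3:**
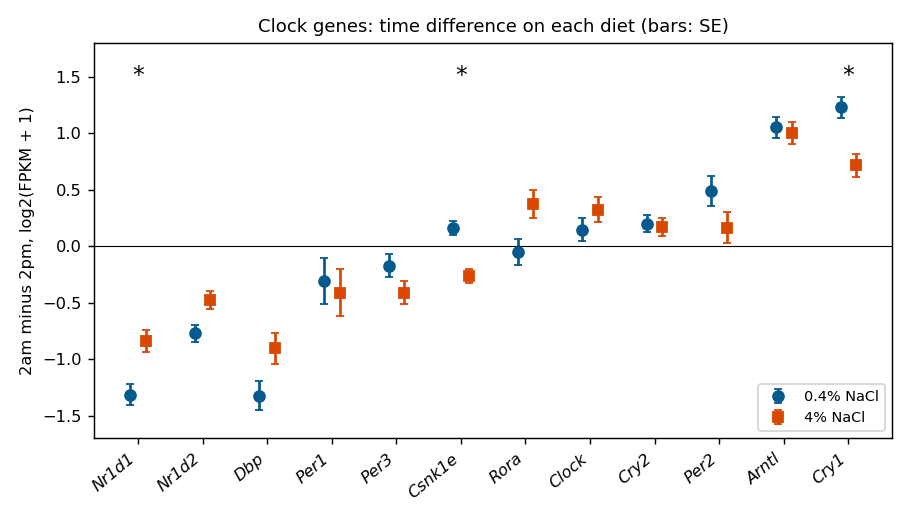
The 2am minus 2pm difference (log2(FPKM + 1), bars are SE) of clock genes on 0.4% and 4% NaCl in libraries labelled Per1KO. Nr1d1 is at -1.32 on normal salt and -0.84 on high salt, and Arntl is at 1.05 and 0.999.

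Promoter sequences of Nr1d1 and Arntl are shown because both genes passed for time on each diet and hold a match to an element named above. Windows of 300 bases (250 before to 50 after each start) come from RefSeq, build GRCr8, and 11 of 12 clock genes looked up had at least 1, 13 windows in all. Both strands were searched for the E-box CACGTG, the D-box TTATGNAA and the ROR response element, which were found in 6.42%, 3.66% and 0.852% of 33469 windows. Capitals mark a match. The Nr1d1 window lies at chr10:84229405-84229704 on the minus strand and holds 1 E-box; another Nr1d1 window, chr10:84231763-84232062, holds none of the motifs. The Arntl window lies at chr1:176766078-176766377 on the plus strand and holds 1 ROR response element. Among the 13 windows, 1 holds an E-box, 1 a D-box (Per2) and 1 a ROR response element, and the other 10 hold none of the motifs. These matches describe the letters only, and the data do not measure binding.
Nr1d1: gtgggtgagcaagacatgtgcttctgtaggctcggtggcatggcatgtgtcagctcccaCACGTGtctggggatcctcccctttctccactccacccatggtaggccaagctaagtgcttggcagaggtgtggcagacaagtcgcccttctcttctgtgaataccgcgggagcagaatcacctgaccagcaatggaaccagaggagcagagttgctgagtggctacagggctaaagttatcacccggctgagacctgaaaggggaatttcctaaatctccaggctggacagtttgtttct
Arntl: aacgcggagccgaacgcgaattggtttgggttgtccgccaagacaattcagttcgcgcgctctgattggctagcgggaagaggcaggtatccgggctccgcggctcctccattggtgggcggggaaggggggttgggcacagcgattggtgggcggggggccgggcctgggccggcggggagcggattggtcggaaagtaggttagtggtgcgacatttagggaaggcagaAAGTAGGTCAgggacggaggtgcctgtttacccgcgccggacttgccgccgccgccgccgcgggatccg

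Genes of proximal tubule transport and energy metabolism made up the largest lists with positive interactions. Of 31 proximal tubule transport genes tested, 15 passed, all positive (28 positive estimates, median 0.60). Of the 31, 18 were higher at 2am on high salt (6.81% of all genes), which fell to 1 with only high salt 2pm replicates 4 and 5, while 3 were higher and 1 lower on normal salt (2.38% and 2.28% of all genes). Fatty acid oxidation and PPAR target genes passed in 12 of 32 (median 0.52), amino acid and creatine metabolism in 12 of 27 (0.50), the tricarboxylic acid cycle in 9 of 19 (0.35), oxidative phosphorylation in 11 of 40 (0.31), antioxidant and glutathione genes in 5 of 21 (0.32) and gluconeogenesis and glucose transport in 5 of 16 (0.13), all positive, beside 5.98% of all genes and an overall median of 0.01. The SS medians of these 7 lists, in the same order, were 0.00, -0.18, 0.03, 0.06, 0.12, -0.07 and 0.15, the last above the Per1KO median of 0.13. Few members differed between the genotypes. The interaction was higher in Per1KO than in SS for 3 of 31 transport genes and 6 of 32 fatty acid oxidation genes (1.33% of all genes). It differed for 0 genes of the other lists named here. Glycolysis was split, with 3 positive and 3 negative of 22 (Slc16a1 and Gapdh among the positive, and Hk1, Pfkp and Hk2 negative).

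Slc5a12, which takes up lactate with sodium, illustrates the transport list. It was 59.5 to 159.8 FPKM at 2pm (median 109) and 58.0, 78.5, 83.6, 86.4 and 126 at 2am on normal salt. On high salt it was 37.5, 24.5, 49.3, 56.2 and 62.0 at 2pm and 75.5, 121, 121, 102 and 94.3 at 2am. The time groups overlapped on normal salt and not on high salt, where all 5 libraries at 2am were above all 5 at 2pm, and the interaction was 1.498 ± 0.36 (adjusted p = 0.0137). Slc16a1, a monocarboxylate transporter, had a high salt difference of 1.64 and an interaction of 1.46 ± 0.38 (adjusted p = 0.0204). Slc6a19 (neutral amino acids) had 1.28 ± 0.34 (adjusted p = 0.0228), Slc5a2 (the glucose transporter SGLT2) 1.10 ± 0.29 (adjusted p = 0.0228, and 0.0542 with both libraries apart left out) and Slc7a9 (cystine and dibasic amino acids) 0.87 ± 0.18 (adjusted p = 0.00859). In fatty acid oxidation, Acadvl gave 0.47 ± 0.10, Acaa1a 0.61 ± 0.14 and Etfdh 0.64 ± 0.15 (adjusted p = 0.00808, 0.0118 and 0.0131).

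Respiratory chain genes moved by smaller amounts. Uqcrc2, a core subunit of complex III, was 165 to 234 FPKM at 2pm on normal salt (median 181) and 167, 168, 180, 183 and 182 at 2am, and on high salt 140, 128, 122, 156 and 154 at 2pm and 190, 195, 173, 190 and 204 at 2am. The groups overlapped on normal salt only, and the interaction was 0.54 ± 0.12 (adjusted p = 0.00951). Ndufa4 and Cox6c, both of complex IV, gave 0.51 ± 0.12 and 0.49 ± 0.12 (adjusted p = 0.0118 and 0.0163). Sdhc, of complex II, passed with 0.40 and Idh3g of the tricarboxylic acid cycle with 0.44 (both adjusted p = 0.0127). In gluconeogenesis, Fbp1 passed with 0.86 ± 0.19 (adjusted p = 0.00951), the glucose-6-phosphate transporter Slc37a4 with 0.77 ± 0.15 (adjusted p = 0.00571) and G6pc, the glucose-6-phosphatase, with 0.83 ± 0.20 (adjusted p = 0.0137). Asl, an enzyme of the urea cycle and arginine synthesis, passed on normal salt only (-0.85) and gave 0.98 ± 0.19 (adjusted p = 0.00682), Shmt1 of folate metabolism gave 0.76 ± 0.14 (adjusted p = 0.00552) and the D-amino acid oxidase gene Dao 0.61 ± 0.13 (adjusted p = 0.00868). In the antioxidant list, the peroxiredoxin gene Prdx1 gave 0.45 ± 0.10, the glutathione peroxidase gene Gpx1 0.55 ± 0.12 and the glutathione transferase gene Gsta1 0.82 ± 0.19 (adjusted p = 0.00951, 0.0109 and 0.0128). In glycolysis, Pfkp, a phosphofructokinase, gave -0.59 ± 0.10 (adjusted p = 0.00459). Maob, a monoamine oxidase, and F13b, a coagulation factor subunit, were among the highest positive interactions (1.39 ± 0.31 and 1.43 ± 0.35, adjusted p = 0.0108 and 0.0158), both without overlap between the times on high salt.

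**Figure D4:**
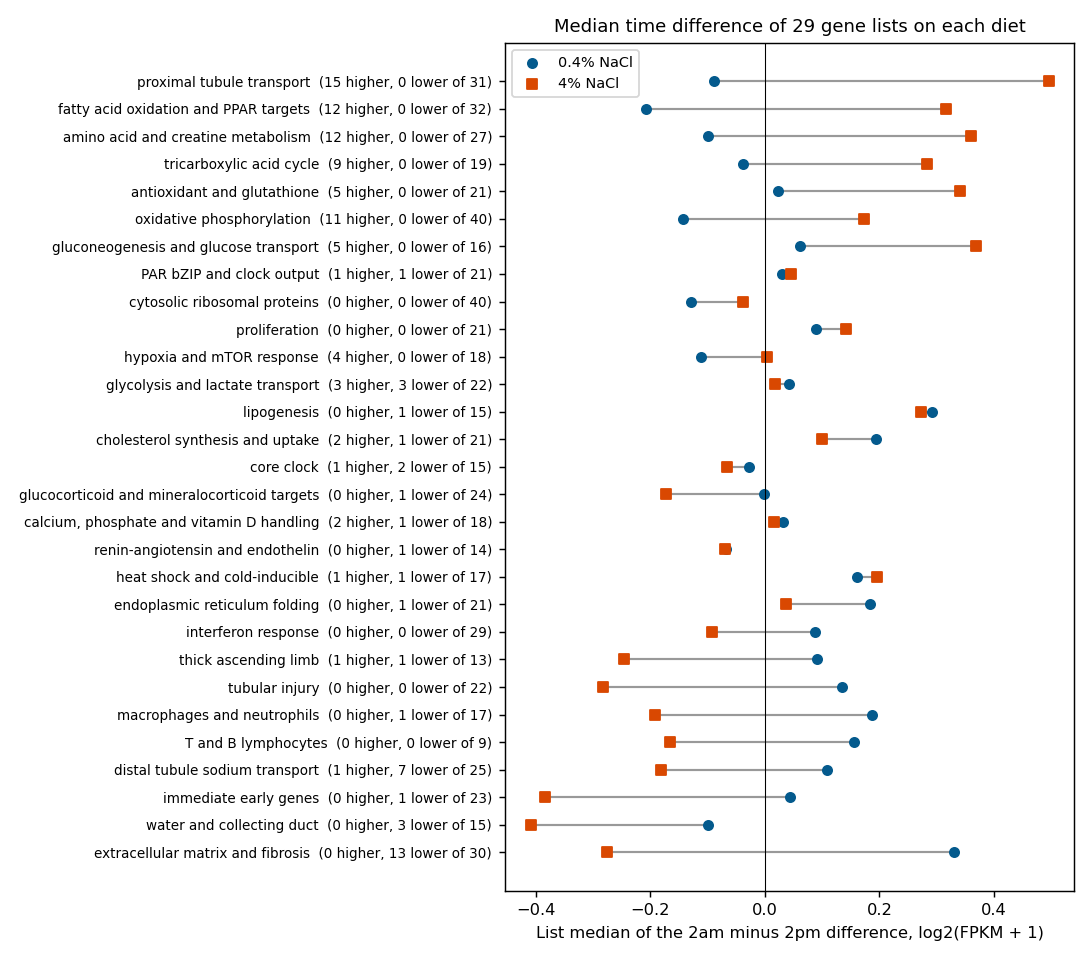
Median 2am minus 2pm difference, log2(FPKM + 1), of each gene list on 0.4% and 4% NaCl in libraries labelled Per1KO. Proximal tubule transport is at -0.09 on normal salt and 0.50 on high salt, and extracellular matrix and fibrosis at 0.33 and -0.27.

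Proximal tubule markers moved with these lists. Their summed FPKM was 7195 to 10287 on normal salt at 2pm and 6909 to 7954 at 2am. On high salt it was 2885 to 4443 at 2pm and 5102 to 6885 at 2am, with no overlap between these groups. Of the 8 markers 5 passed with a positive interaction (median 0.66), beside 5.98% of all genes. The transport list holds 6 of the 8 markers and 4 of the 5 that passed, so those calls are counted in both. In bulk tissue, fewer cells of a type and less RNA per cell cannot be told apart. The part of the markers in these results was not tested. The positive counts fell to 0 in the first 5 lists with only high salt 2pm replicates 4 and 5, although the medians kept their sign at 0.36, 0.36, 0.35, 0.26 and 0.29. Without 1 library the proximal tubule count lay between 7 (without normal salt 2am replicate 2) and 19, and that of oxidative phosphorylation between 6 (without normal salt 2am replicate 3) and 19 (without normal salt 2pm replicate 4). With both libraries apart left out the counts were 7 and 5. In the model of all 43 libraries the counts were 2 for proximal tubule transport, 8 for fatty acid oxidation, 6 for amino acid metabolism, 0 for the tricarboxylic acid cycle and 2 for oxidative phosphorylation.

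**Figure D5:**
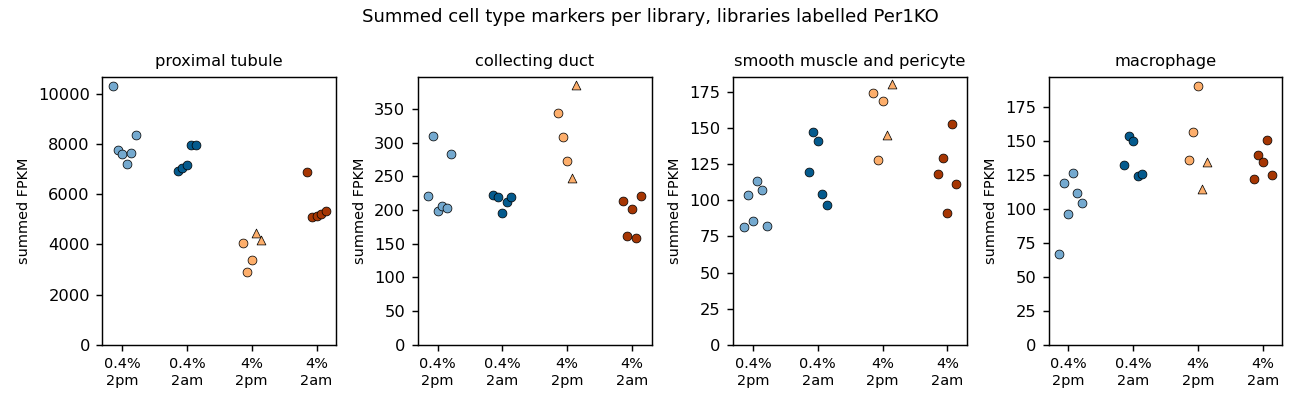
Summed FPKM of 4 sets of cell type markers in each library labelled Per1KO, by diet and time; triangles are high salt 2pm replicates 4 and 5. The proximal tubule sum is 2885 to 4443 in the high salt 2pm libraries and 5102 to 6885 in the high salt 2am libraries, and 6909 to 10287 on normal salt.

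Distal sodium transport and collecting duct genes had mostly negative interactions. In the distal sodium transport list 7 of 25 passed negative (Scnn1a, Stk39, Wnk4, Atp1b1, Fxyd5, Scnn1b and Tmprss2) and 1 positive (Prss8), with a median of -0.36, beside 5.47% of all genes negative. In the water transport and collecting duct list 3 of 15 passed negative (Aqp6, Atp6v1g3 and Avpr2), with a median of -0.53. Scnn1a encodes the alpha subunit of ENaC, on chromosome 4 at 157836912 to 157860049 in the tables' annotation. It lay between 12 and 16.4 FPKM at 2pm on normal salt (median 14.4) and read 27.9, 26.2, 25.2, 25.8 and 26.5 at 2am, a difference of 0.86. On high salt it read 29.5, 33.3, 27.7, 17.6 and 22.1 at 2pm and 28.0, 19.0, 21.6, 19.1 and 18.2 at 2am, a difference of -0.27 that did not pass (adjusted p = 0.187). The groups did not overlap on normal salt and overlapped on high salt. The interaction was -1.13 ± 0.19 (adjusted p = 0.00443), and it passed with only replicates 4 and 5 (-0.78, adjusted p = 0.0486). The difference from SS, where the interaction was 0.05, was -1.17 ± 0.37 and did not pass (adjusted p = 0.0725).

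The beta subunit gene Scnn1b (-0.58 ± 0.18, adjusted p = 0.0433) and the gamma subunit gene Scnn1g (-0.52 ± 0.17, adjusted p = 0.0562) did not share the normal salt rise of Scnn1a, with normal salt differences of -0.01 and -0.03 and high salt differences of -0.60 and -0.55. Scnn1b failed without 1 library in 15 of 21 cases, and with both libraries apart left out (adjusted p = 0.0674). Wnk4, a regulator of SPAK, passed with -0.52 ± 0.12 (adjusted p = 0.0119), and Aqp6, an intercalated cell channel, with -0.53 ± 0.11 (adjusted p = 0.00898). Collecting duct markers summed to 199 to 310 FPKM on normal salt at 2pm and 195 to 222 at 2am. On high salt they summed to 248 to 386 at 2pm and 158 to 220 at 2am. Of 8 markers 2 passed, both negative (median -0.58), beside 5.47% of all genes. These are Avpr2 and Atp6v1g3, already counted in the water transport and collecting duct list, which shares 6 of the 8 markers, and the markers' part in these results was not tested. Without 1 library the negative count of the distal list lay between 3 (without high salt 2am replicate 5 or normal salt 2am replicate 2) and 10. It was 4 with both libraries apart left out and 2 with only high salt 2pm replicates 4 and 5. The only positive call, Prss8, was lost in 13 of 21 fits without 1 library. Prss8 was also lost without the expression filter, with the replicate block, with only high salt 2pm replicates 4 and 5, and with both libraries apart left out.

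Extracellular matrix and fibrosis genes made up the list with most negative interactions, at 13 of 30 (all negative, beside 5.47% of all genes, median -0.62, 3 positive estimates). They included Col1a1, Col4a1, Col5a1, Col5a2, Fn1, Lox and Tgfb1. Loxl1 was 17.5 to 44.8 FPKM at 2pm on normal salt (median 30.3) and 33.7, 41, 47.6, 36.0 and 41.2 at 2am, and on high salt 54.0, 56.8, 69.8, 48.5 and 50.4 at 2pm and 32.8, 35.9, 37.9, 40.2 and 37.2 at 2am. The groups overlapped on normal salt and not on high salt. Pdgfrb was 6.23 to 13.8 FPKM at 2pm on normal salt (median 11) and 12.2, 14.4, 15.0, 13.9 and 15.2 at 2am, and on high salt 18.4, 13.6, 19.0, 15.4 and 17.2 at 2pm and 10.4, 12.4, 10.3, 12 and 9.70 at 2am, again with no overlap on high salt. Acta2, the smooth muscle actin, had an interaction of -1.03 ± 0.23 (adjusted p = 0.01), and Fst, which encodes the activin antagonist follistatin, -1.81 ± 0.42 (adjusted p = 0.0121). The Wnt modulator gene Sfrp2 gave -1.13 ± 0.30 and the matrix-associated genes Smoc2 and Adamtsl2 -1.15 ± 0.31 and -1.23 ± 0.29 (adjusted p = 0.0222, 0.0228 and 0.0128); without both libraries apart the adjusted p of Smoc2 was 0.0518. The interaction differed from SS for 4 of the 30 matrix genes (1.37% of all genes were lower in Per1KO), Pdgfrb, Loxl1, Tgfb1 and Timp2, all lower in Per1KO. Smooth muscle and pericyte markers include Pdgfrb and Acta2, which are also in the matrix list. They summed to 81.8 to 113 FPKM on normal salt at 2pm and 96.7 to 147 at 2am. On high salt they summed to 128 to 180 at 2pm and 91.2 to 153 at 2am. Of the 6 markers 3 passed negative (median -0.77), Pdgfrb and Acta2 among them, beside 5.47% of all genes. The markers' part in the list's result was not tested. Without 1 library the matrix count lay between 7 (without high salt 2pm replicate 3 or normal salt 2am replicate 3) and 21 (without normal salt 2pm replicate 4), it was 7 with both libraries apart left out, and it was 0 with only high salt 2pm replicates 4 and 5 (median -0.62).

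Prima1, Hyou1 and Tmem86a passed for time on normal salt and not on high salt. Prima1, which anchors acetylcholinesterase to the membrane, was 21.4 to 45.7 FPKM at 2pm (median 36.2) and 10.2, 7.15, 8.49, 11.9 and 10.9 at 2am on normal salt. The high salt values were 5.56, 2.97, 4.54, 8.9 and 10.9 at 2pm and 11.6, 7.27, 6.31, 4.21 and 7.51 at 2am. All libraries of the other 3 groups lay below the normal salt 2pm group. Prima1 had an interaction of 1.94 ± 0.37 (adjusted p = 0.00579), with a normal salt difference of -1.74 and a high salt difference of 0.20. Hyou1, a chaperone of the endoplasmic reticulum, rose at 2am on normal salt by 0.66 with a high salt difference of 0.04 (interaction -0.63 ± 0.14, adjusted p = 0.0114). Tmem86a passed with 1.46 ± 0.35 (adjusted p = 0.0139), with 2am minus 2pm estimates of -2.04 (0.4% NaCl) and -0.58 (4% NaCl). Wbp11, which encodes a splicing-related WW domain binding protein, had the highest positive interaction among genes with a symbol, 2.48 ± 0.50 (adjusted p = 0.00707). Its normal salt difference of -0.998 did not pass (adjusted p = 0.0979) and its high salt difference of 1.49 did (adjusted p = 0.0139), at levels of 0.218 to 10.7 FPKM over the libraries.

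Ribosomal protein genes (0 of 40, median 0.08), proliferation genes (0 of 21, 0.08), interferon response genes (0 of 29, -0.21), tubular injury genes (0 of 22, -0.34) and T and B cell genes (0 of 9, -0.35) gave no call with limma, and none with voom on recovered fragments. In the same order, 1, 0, 2, 6 and 3 members had an unadjusted limma p under 0.05, beside 3884 of all 13621 genes tested. Immediate early genes gave 1 of 23 (median -0.39, 0 positive estimates), glucocorticoid targets 1 of 24 (-0.04), and genes of the PAR bZIP and clock output list 2 of 21 (0.10), beside 11.5% of all genes. The hypoxia and mTOR list gave 4 of 18, all positive (Ankrd37, Bnip3, Sesn1 and Sesn2), beside 5.98% of all genes. Its median was 0.07, with 10 positive estimates of 18. Ankrd37, a hypoxia-inducible gene, was lower at 2am on normal salt (-0.86), with an interaction of 1.01 ± 0.21 (adjusted p = 0.00784). In endoplasmic reticulum folding 9 rose and 1 fell at 2am on normal salt (2.38% and 2.28% of all genes), 6 rose and 3 fell on high salt (6.81% and 5.33% of all genes), and 1 of 21 (Hyou1) passed the interaction. Of 17 heat shock and cold-inducible genes, 8 rose and 1 fell on normal salt (2.38% and 2.28% of all genes). On high salt 6 rose and 1 fell (6.81% and 5.33% of all genes). The interaction passed in 2 of 17, 1 in each direction, a share near the 11.5% of all genes. Cholesterol synthesis and uptake genes gave 2 positive and 1 negative of 21, beside 5.98% and 5.47% of all genes. In that list 4 were higher at 2am on normal salt and 6 on high salt (2.38% and 6.81% of all genes). Havcr1, the tubular injury marker KIM-1, had an interaction of -1.04 ± 0.47 that did not pass (adjusted p = 0.149). Macrophage and neutrophil genes gave 1 negative of 17 (median -0.34), beside 5.47% of all genes. Summed macrophage markers were 66.8 to 126 FPKM on normal salt at 2pm, 124 to 154 at 2am, 115 to 191 on high salt at 2pm and 122 to 150 at 2am.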

How the data were processed

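Poly-A RNA-seq libraries of rat kidney cortex were analysed. featureCounts 1.5.0-p3, HISAT2 2.0.5, StringTie 1.3.3b and fastp are named, without an order, per the submitters' processing notes. The build was not given in the sources used here. Per the labels' protocols libraries could be directional or not, so a gene and an antisense partner may not be told apart. The authors deposited FPKM values per gene, in 1 table for normal salt and 1 for high salt. These were joined on gene ID (32545 genes in both). Multiples of 1 fragment per gene were whole within 0.01 fragments, which gave the depths.

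Values were set to log2(FPKM + 1), which understates changes of low genes. Genes with an FPKM of at least 1 in at least 5 of the 21 libraries were tested with limma 3.58.1 (R 4.3.3): 4 group means, moderated with a trend, contrasts for the time difference on each diet and the interaction, with Benjamini-Hochberg adjustment over 13621 genes. A second fit of all 43 libraries (14102 genes) gave the SS interaction and the difference between genotypes. The fit was run on simulated data with independent noise for each gene and library. That run cannot check the calls against effects shared by libraries. Intervals are standard errors; n is 5 or 6 libraries per group. Same-numbered replicates did not deviate together, so the numbers were not used as pairs.

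Of genes with a symbol, those named by the rule were the core clock genes, the 12 highest positive and 12 highest negative interactions, up to 3 members per pathway list by p, and genes with opposite time differences on both diets; not all are printed. Atp1b1, Col1a1, Col4a1, Col5a1, Col5a2, Dbp, Fn1, Fxyd5, Gapdh, Hk2, Lox, Prss8, Scnn1b, Scnn1g, Sesn2, Slc5a2, Tgfb1, Timp2 and Tmprss2 were added after their values were seen. Members and lists were chosen with earlier results of these data known. Promoter motifs were searched in the RefSeq table of GRCr8. Some genes are not reported here.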

Additional observations from a re-analysis of the deposited data

Results flagged for a closer look

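The 2am minus 2pm difference depended on diet in 1560 genes in the libraries labelled Per1KO, and the interaction differed between Per1KO and SS in 381 genes. Among the genes examined one by one, the interaction differed between the genotypes for Proc (1.03), Slc27a2 (0.997), Etfdh (0.80) and Pzp (1.44), which were higher in Per1KO, and for Cdc42ep1 (-0.99), Eng (-1.23), Pdgfrb (-1.24) and Loxl1 (-1.45), which were lower (log2, limma, adjusted p between 0.025 and 0.0372). The Etfdh difference failed in 15 of the 43 fits without 1 library.

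Single libraries lay far from the rest of their group in 11 of 288 groups of values (72 genes in 4 groups), where chance gives about 1 in 20. In normal salt 2pm replicate 1, the library with high perirenal fat markers, these were Arntl (4.56 FPKM) and Fbp1 (1174), both high. In high salt 2am replicate 1, Idh3g (173.2 FPKM) was high, and Lrrc19 (85.17) and Havcr1 (38.87) were low. In the other libraries, Csnk1e was high in normal salt 2am replicate 3 (9.68 FPKM), as were Tmem86a in normal salt 2am replicate 5 (23.68) and Rtn4rl2 in high salt 2pm replicate 3 (8.853). Low values were those of Adamtsl2 in normal salt 2am replicate 1 (19.05 FPKM), Slc20a1 in normal salt 2am replicate 5 (14.6) and Slc5a2 in high salt 2am replicate 4 (128.2).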

How the results depend on the processing

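The number of genes passing the Per1KO interaction, 1560, was 1070 to 2284 with separate fits per table, a pseudocount of 0.1, rescaling by median ratios, all genes unfiltered, voom on recovered fragments (1697, added after seeing the data) or only high salt 2pm replicates 1 to 3. It was 415 in the model of all 43 libraries (414 of them shared), 79 with only high salt 2pm replicates 4 and 5, and 1014 with both libraries that stand apart left out, the last added after seeing the data. The normal salt count of 634 was 386 without the filter, and the high salt count of 1654 was 45 with only high salt 2pm replicates 4 and 5. The difference between genotypes, 381, was 1970 with only the high salt 2pm libraries numbered 004 to 008 and 63 with only those numbered 44 to 61. Without 1 library the counts lay between 883 and 2090 (Per1KO interaction), 247 and 1049 (normal salt), 1016 and 2364 (high salt), 3 and 85 (SS interaction, 10 with all libraries) and 131 and 681 (difference between genotypes). The cause was not tested.

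Same-numbered libraries did not deviate together (mean correlation -0.02 over 30 pairs, against 0.005 over 135 pairs with different numbers), so the numbers give no pairing; with the replicate block 806 genes passed the interaction, 212 the normal salt difference, 1248 the high salt difference and 346 the difference between genotypes. Of 59 passing genes examined one by one, 9 passed under each of 31 alternatives (Sec14l1, Tanc1, Folr1, Proc, Stk39, Cdc42ep1, Scnn1a, Wbp11 and Pzp). Another 43 failed only with high salt 2pm replicates 4 and 5 alone or in the model of all 43 libraries. Of the 59, Nr1d1, Cry1, Ifitm10 and Scnn1b failed without 1 library. Genes named only as list members were not followed one by one. Among those, Prss8 failed in 13 of 21 fits without 1 library. 0 of the interactions examined one by one changed sign after passing. edgeR was not run, since the values are FPKM; voom took its place. Depth was lower on high salt than on normal salt, which limits low genes there.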
